A study of Schizosaccharomyces pombe with 24 samples.

Results

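The DNA replication machinery of fission yeast was taken here as every gene that the annotation deposited with the count tables places in the KEGG pathway for DNA replication, which gave 35 of 5195 genes. These are the 6 subunits of the MCM helicase, 4 of polymerase alpha-primase, 4 of polymerase delta, 4 of polymerase epsilon, the sliding clamp with 5 subunits of its loader, the 3 subunits of the single-strand binding protein RPA, 7 factors that process Okazaki fragments, and *adl1*, a DNA ligase. The mRNA of *Schizosaccharomyces pombe* was sequenced in 8 genotypes with 3 biological repeats each, 24 libraries in all. The 6 H2B mutants and the *set1* strain were compared with WT to ask how substitutions found in human tumours alter the transcriptome.

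All strains were haploid and carried *leu1-32* and *ura4-D18*. WT was h+ with *ade6-M216*. The mutants *htb1-E34K*, *htb1-D67N*, *htb1-E75Q* and *htb1-E112K* were h+ with *ade6-M210* and had the kanMX6 marker beside the mutated *htb1*, the sole H2B gene, whereas *htb1-G52D* and *htb1-P102L* were h- with an *ade6* allele given as undetermined and had no such marker. The *set1* strain was h+ and its *set1*, which encodes the H3K4 methyltransferase, was described as replaced by kanMX6; its labels give a deletion as the title but name a knockdown under genotype, and the strain names given for it in the study differ. Each genotype was 1 strain, so effects of the substitution, the *ade6* allele, the mating type and the marker cannot be told apart. No drug treatment is given for these cultures.

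As background, replication starts when the MCM helicase, loaded around DNA at origins in G1, is switched on and unwinds the double helix. Polymerase alpha-primase lays short RNA-DNA primers, polymerase epsilon extends the leading strand and polymerase delta the lagging strand, both held on DNA by the clamp PCNA, while RPA coats the exposed single strand. The primers are then removed by RNase H2 and the flap nucleases Rad2 and Dna2, and the nicks are sealed by DNA ligase. In fission yeast, some S-phase genes are transcribed at G1/S by the factor MBF, which recognises the MluI cell cycle box.

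Gene counts summed to between 18935513 and 28181070 per library, and the 35 genes held between 0.0288% and 0.0761% of them. The 100 most abundant genes took 53.8–65.4% of the counts of a library, and levels across libraries are given as CPM, counts scaled to a common library total after TMM normalisation, which trims the most extreme genes. TMM factors lay between 0.703 and 0.868 in WT and were highest in *htb1-E75Q* replicate 2 (1.53), *htb1-G52D* replicate 1 (1.53), *htb1-D67N* replicate 3 (1.36) and *htb1-E34K* replicate 1 (1.3). The libraries labelled *set1*Δ held 336–412 counts of *set1* against 20–32 in WT, which goes against that label, so they are called the libraries labelled *set1*Δ throughout. The marker *ura4*, absent by genotype, had counts above 2 only in WT replicate 3 (865), *htb1-G52D* replicate 1 (1382) and *htb1-P102L* replicate 1 (712), and without these 3 libraries calls were 4 up (11.4%; all genes 10.2%) and 2 down (5.71%; all genes 4.3%) for *htb1-P102L*, and for *htb1-G52D*, where 34 of the 35 genes were tested, 4 up (11.8%; all genes 12.7%) and 1 down (2.94%; all genes 8.11%). The mating-type gene *mat1-Mc*, a gene of the minus mating type, had 103 counts in WT replicate 3, reached 150 in *htb1-P102L* and 238 in *htb1-G52D*, and was at 0 in 1 library of each of these h- mutants. All 7 comparisons with WT share the same 3 WT libraries.

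In WT the 35 genes spanned a wide range of transcript levels, compared here per length as FPKM (fragments scaled for transcript length and library size). Their median was 2.42 FPKM against 3.93 FPKM over all genes, and 22 of the 35 lay below that median of all genes. The clamp gene *pcn1* (SPBC16D10.09), which encodes PCNA, was the highest at 54.6 ± 6.44 FPKM (SD, n = 3). Next came *cdc1*, the second subunit of polymerase delta, at 26.6 ± 1.89 FPKM and the clamp-loader gene *rfc4* at 26.1 ± 3.46 FPKM, whose ranges overlapped. At the other end, *cdc20*, which encodes the catalytic subunit of polymerase epsilon, lay at 0.14 ± 0.0624 FPKM and *dna2*, which encodes a nuclease-helicase, at 0.07 ± 0.03 FPKM. The highest level was 780 times the lowest. Only for *pcn1*, *rfc4* and *rfc2* did all 3 WT libraries lie above those of the next gene in the order, so most neighbours in the order of levels did not differ beyond their spread.

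A gene was called higher or lower when the quasi-likelihood test of edgeR gave it an adjusted p below 0.05 and its fold change was at least 2. In *htb1-G52D*, 4 of the 35 genes were higher (11.4%) against 13.4% of all genes tested, and 2 were lower (5.71%) against 8.07%. In *htb1-E75Q*, 3 were higher (8.57%; all genes 13%) and 1 was lower (2.86%; all genes 8.48%). In *htb1-D67N*, 3 were higher (8.57%; all genes 10.8%) and 0 lower (all genes 4.48%). In *htb1-P102L*, 3 were higher (8.57%; all genes 9.93%) and 1 was lower (2.86%; all genes 3.48%). In *htb1-E112K*, 1 was higher (2.86%; all genes 7.96%) and 0 lower (all genes 2.34%). In the libraries labelled *set1*Δ, 1 was higher (2.86%; all genes 5.16%) and 0 lower (all genes 1.3%). The counts are of 0 to 4 genes, and whether their share differs from that of the whole table was not tested. In *htb1-P102L* the share called lower was 5.71% (2 genes) against 3.84% with DESeq2 and against 4.05% with the gene-length correction. Counts moved by over 1.5 times without a single library in some of them. The higher count was 1 in *htb1-D67N* without WT replicate 1 (all genes 9.45%). It was 1 in *htb1-E75Q* without WT replicate 2 (all genes 10.6%) or *htb1-E75Q* replicate 2 (all genes 10.2%), and 2 in *htb1-E112K* without WT replicate 3 (all genes 7.98%). It was 0 in the libraries labelled *set1*Δ without WT replicate 2 (all genes 4.85%) or their own replicate 1 (all genes 4.23%). The lower count was 1 in *htb1-D67N* without WT replicate 2 (all genes 4.7%) or 3 (all genes 5.16%), and 2 in *htb1-E75Q* without its replicate 2 (all genes 6.72%). It was 1 in *htb1-G52D* without WT replicate 3 (all genes 8.15%) or its own replicate 3 (all genes 7.3%). In *htb1-P102L* it was 3 (8.57% against 3.55% of all genes) without WT replicate 2, 3 (all genes 4.18%) without its own replicate 1 and 2 (all genes 3.53%) without WT replicate 3.

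In *htb1-E34K* 0 of the 35 genes were called by edgeR in either direction, against 0.103% of all genes called higher and 0% lower. By an unadjusted p below 0.05, 3 of the 35 lay above WT and 4 below, beside 900 of all 4862 genes in either direction. DESeq2 also called 0 of the 35, against 2.01% of all genes higher and 0.448% lower. The whole table gave 5 calls here, but 58 higher and 10 lower without *htb1-E34K* replicate 1, and 51 higher and 27 lower without replicate 3. The absence of lower calls in *htb1-D67N*, *htb1-E112K* and the libraries labelled *set1*Δ stood beside 7, 9 and 4 genes below WT at an unadjusted p below 0.05, and beside 1, 0 and 0 lower calls by DESeq2. In the same order, 2213 of 4862, 1955 of 4915 and 1885 of 4845 of all genes had such an unadjusted p in either direction. DESeq2 called 5.49%, 2.49% and 1.31% of all genes lower.

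**Figure D1:**
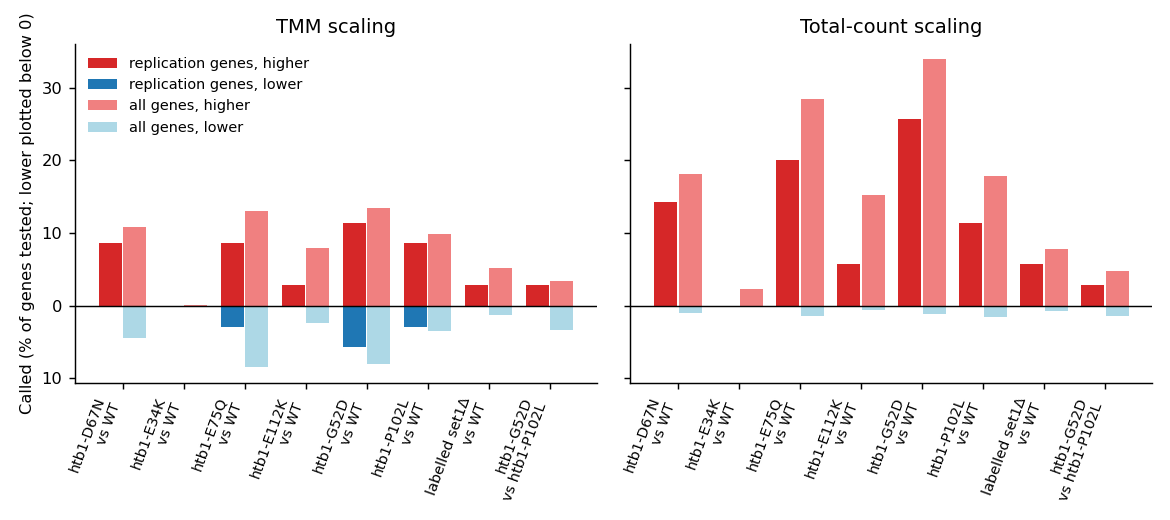
Percent of genes called higher and lower (y axis, percent of genes tested, lower calls drawn below 0) in each comparison (x axis) among the 35 replication genes and among all genes, under TMM scaling and under scaling by total counts. Called means adjusted p below 0.05 and at least 2-fold. Under TMM the share called higher in *htb1-G52D* was 11.4% of the replication genes and 13.4% of all genes, and under total-count scaling 25.7% and 33.9%.

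By the adjusted p alone, without the fold limit, 13 of the 35 genes (37.1%) passed in *htb1-G52D* against 43.4% of all genes, and 13 (37.1%) in *htb1-P102L* against 38.1%. The count was 10 (28.6%) in *htb1-E75Q* against 36.1%, 8 (22.9%) in *htb1-D67N* against 35.8%, 6 (17.1%) in *htb1-E112K* against 27.8%, 3 (8.57%) in the libraries labelled *set1*Δ against 26.4%, and 0 in *htb1-E34K* against 0.103%. The median log2 fold change of the 35 genes stood beside that of all genes at -0.06 against 0.08 in *htb1-D67N*, 0.04 against 0.09 in *htb1-E34K*, -0.01 against 0.08 in *htb1-E75Q*, -0.01 against 0.03 in *htb1-E112K*, 0.13 against 0.09 in *htb1-G52D*, -0.11 against 0.03 in *htb1-P102L* and -0.09 against 0.01 in the libraries labelled *set1*Δ. Calls fell on 11 of the 35 genes (31.4%) in the 7 comparisons with WT, against 37.5% of all genes tested. Of these, 4 (11.4%) were called in at least 2 comparisons, against 23.3% of all genes, and 24 were called in 0. Calls in opposite directions in different genotypes were made for 0 of the 35 genes and for 1.1% of all genes.

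**Figure D2:**
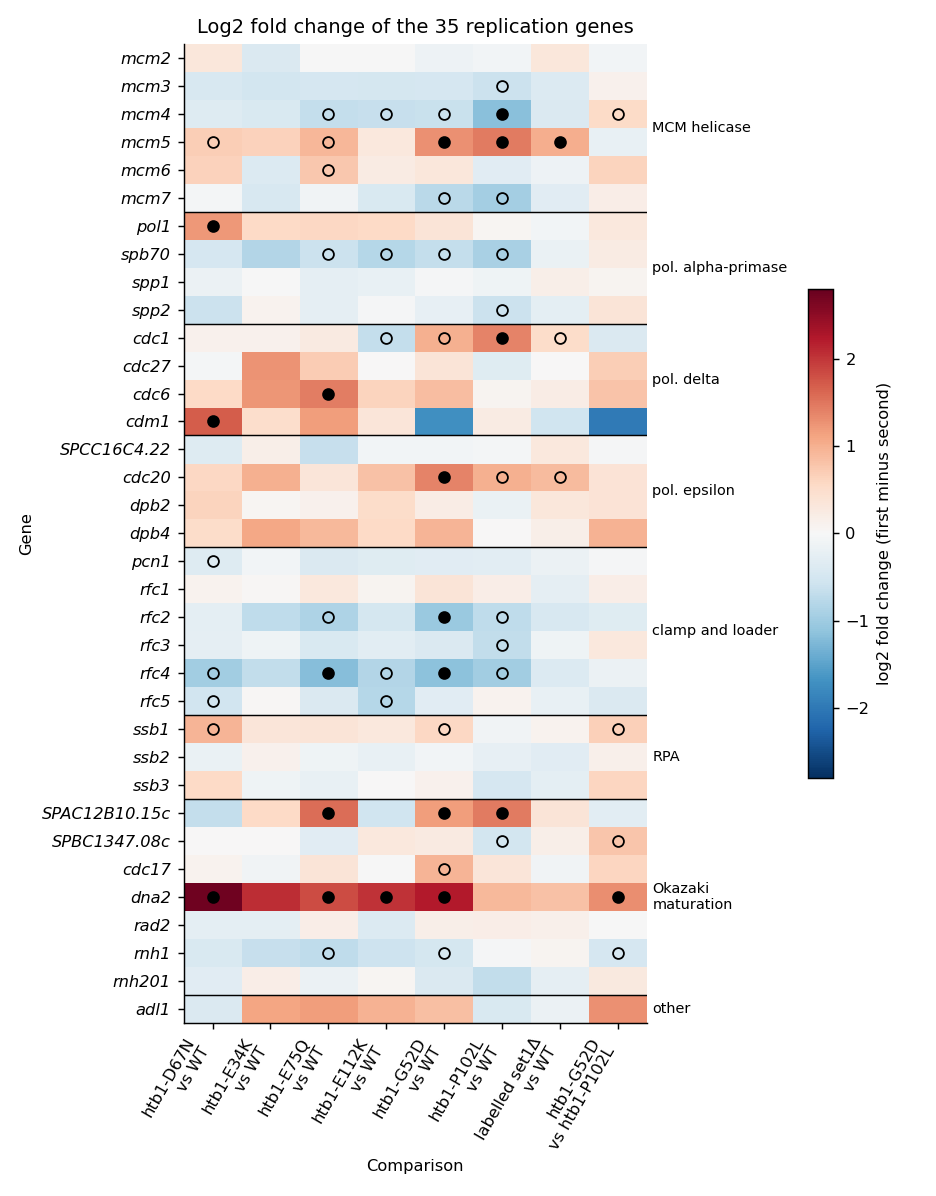
Log2 fold change (colour; TMM scaling, n = 3 against 3) of the 35 replication genes, grouped by role (rows), in the 7 comparisons with WT and in *htb1-G52D* against *htb1-P102L* (columns). Filled dots mark called genes and open dots an adjusted p below 0.05 with less than a 2-fold change; *dna2*, *mcm5*, SPAC12B10.15c and *rfc4* are the genes called in at least 2 comparisons with WT.

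Calls among the 6 MCM subunits, which form 1 hexamer, fell on *mcm5* and *mcm4*. *mcm5* (SPAC1B2.05) was called higher in *htb1-P102L*, *htb1-G52D* and the libraries labelled *set1*Δ, *mcm4* (SPCC16A11.17) was called lower in *htb1-P102L*, a call lost under total-count scaling, and *mcm2*, *mcm3*, *mcm6* and *mcm7* were called in no comparison. *mcm5* stood at 12.1, 8.98 and 10.5 CPM in the WT libraries. It stood at 27.5, 30.1 and 28.1 CPM in *htb1-P102L* (log2 fold change 1.46 ± 0.145 (SE), adjusted p = 2.31e-05). In *htb1-G52D* the values were 26.1, 25.9 and 23.9 CPM (log2 fold change 1.27 ± 0.154 (SE), adjusted p = 0.000269). All libraries of both mutants lay above all WT libraries.

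The libraries labelled *set1*Δ gave 22.5, 20.1 and 18.1 CPM of *mcm5* (log2 fold change 1.01 ± 0.153 (SE), adjusted p = 0.000988), close to the fold limit and without overlap with WT; the call was lost without WT replicate 2 (0.89), WT replicate 3 (0.99) or replicate 1 of these libraries (0.91), as it was with DESeq2 (0.98) and with all 24 libraries in 1 fit (0.94). The other H2B mutants had 14, 15.8 and 18.4 CPM in *htb1-D67N* (0.68, adjusted p = 0.0148), 22.5, 23.7 and 15.1 CPM in *htb1-E75Q* (0.94, adjusted p = 0.00471), with no call for *htb1-E112K* at 15.6, 11.1 and 11.1 CPM or *htb1-E34K* at 18.9, 18.9 and 10.5 CPM. With a correction for gene length the log2 fold change of *mcm5* was 0.76 in *htb1-G52D* and 0.89 in the libraries labelled *set1*Δ, short of 2-fold, and 1.17 in *htb1-P102L*. The gene *trk1*, which encodes a potassium transporter, overlaps 53.1% of *mcm5* on the opposite strand, and whether reads were counted by strand is not given in the sources used here. *trk1* itself had log2 fold changes of -0.83 (adjusted p = 0.0223) in *htb1-G52D*, -0.45 (adjusted p = 0.0426) in *htb1-P102L*, -0.38 (adjusted p = 0.394) in *htb1-E34K*, -0.06 (adjusted p = 0.799) in the libraries labelled *set1*Δ, 0.14 (adjusted p = 0.691) in *htb1-E75Q*, 0.29 (adjusted p = 0.253) in *htb1-D67N* and 0.32 (adjusted p = 0.192) in *htb1-E112K*. In all, 20 of the 35 genes are overlapped by a counted gene on the opposite strand, 7 of them over most of their length. With RefSeq genes that were not counted, mostly non-coding RNAs, 32 are overlapped on the opposite strand, 26 of them over most of their length. These overlaps cover 100% of SPAC12B10.15c, 99.1% of *cdc1*, 79.6% of *cdc20*, 71.8% of *dna2* and 58.7% of *mcm4*. Their part in the counts was not tested.

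*mcm4* gave 18.9, 21.1 and 25.1 CPM in WT and 10.8, 8.56 and 9.24 CPM in *htb1-P102L*, where it fell from its WT level without overlap (log2 fold change -1.17 ± 0.161 (SE), adjusted p = 0.000237). Its values were 15.8, 12.7 and 13.5 CPM in *htb1-G52D* (-0.63, adjusted p = 0.0113), 15.1, 13.4 and 12.8 CPM in *htb1-E75Q* (-0.67, adjusted p = 0.0152) and 14.8, 14.2 and 12 CPM in *htb1-E112K* (-0.64, adjusted p = 0.0139). *htb1-D67N* had 14.6, 17.8 and 15.7 CPM, *htb1-E34K* 18.8, 13.5 and 14.8 CPM and the libraries labelled *set1*Δ 15.3, 18.8 and 12.8 CPM. The call in *htb1-P102L* was lost under total-count scaling (-0.83), where the log2 fold change of *mcm4* was 0.02 for *htb1-D67N*, -0.02 for *htb1-E75Q* and 0.05 for *htb1-G52D*.

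*mcm3* and *mcm7* also had values below WT in all 6 H2B mutants, between -0.61 and -0.44 for *mcm3* and between -0.95 and -0.05 for *mcm7*, but under total-count scaling *mcm3* lay above WT in 3 mutants and *mcm7* in 3. WT libraries held 48, 32 and 56.8 CPM of *mcm3* and 7.84, 6.17 and 10.2 CPM of *mcm7*. In *htb1-P102L* they held 28.8, 30 and 29.7 CPM of *mcm3* (-0.61, adjusted p = 0.0229) and 4.91, 3.39 and 4.21 CPM of *mcm7* (-0.95, adjusted p = 0.00578). In *htb1-G52D* the adjusted p of *mcm7* was 0.0429 at 5.99, 3.32 and 4.91 CPM. Neither gene reached 2-fold in either mutant. For *mcm3* the other libraries held 36.7, 30.3 and 30.6 CPM in *htb1-G52D*, 24.4, 26.1 and 45.5 CPM in *htb1-D67N*, 43.1, 26.6 and 25.2 CPM in *htb1-E112K*, 39.4, 31.8 and 28 CPM for *htb1-E75Q*, 38.8, 25 and 29.3 CPM for *htb1-E34K* and 35.4, 35.1 and 29.6 CPM for those labelled *set1*Δ. For *mcm7* they held 4.29, 5.54 and 12.3 CPM in *htb1-D67N*, 7.94, 4.82 and 4.79 CPM in *htb1-E112K*, 7.03, 11.5 and 4.55 CPM for *htb1-E75Q*, 8.6, 4.36 and 4.36 CPM for *htb1-E34K* and 6.72, 6.83 and 5.08 CPM for those labelled *set1*Δ. WT replicate 2 was the lowest of the WT libraries for both genes.

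*mcm2* (SPBC4.04c) held 40.6, 35.1 and 29.6 CPM in WT, and its fold changes lay between -0.41 in *htb1-E34K* and 0.32 in the libraries labelled *set1*Δ, with libraries overlapping those of WT in *htb1-D67N*, where it held 44.9, 47 and 32.7 CPM. *htb1-G52D* gave 23.3, 36.6 and 35.2 CPM and *htb1-P102L* 37, 30.1 and 31.3 CPM of *mcm2*. *htb1-E34K* held 20.9, 29.9 and 26.4 CPM, beside 41.1, 25.9 and 37.9 CPM for *htb1-E75Q*, 33.7, 34.9 and 33.9 CPM for *htb1-E112K* and 39.4, 40.1 and 46.3 CPM for the libraries labelled *set1*Δ. *mcm6* (SPBC211.04c) held 4.57, 3.68 and 3.68 CPM in WT against 6.18, 8.22 and 5.79 CPM in *htb1-E75Q* (0.75, adjusted p = 0.0364), 4.98, 5.08 and 7.58 CPM in *htb1-D67N* and 4.86, 4.4 and 5.51 CPM in *htb1-G52D*. All 3 *htb1-E75Q* libraries lay above WT for *mcm6*, while *htb1-E34K* held 5.4, 1.93 and 1.51 CPM, *htb1-E112K* 4.79, 5.11 and 3.9 CPM, *htb1-P102L* 3.57, 2.89 and 3.06 CPM and the libraries labelled *set1*Δ 3.44, 3.09 and 3.78 CPM. Within *htb1-P102L* the subunits ranged from -1.17 for *mcm4* to 1.46 for *mcm5* on the log2 scale.

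**Figure D3:**
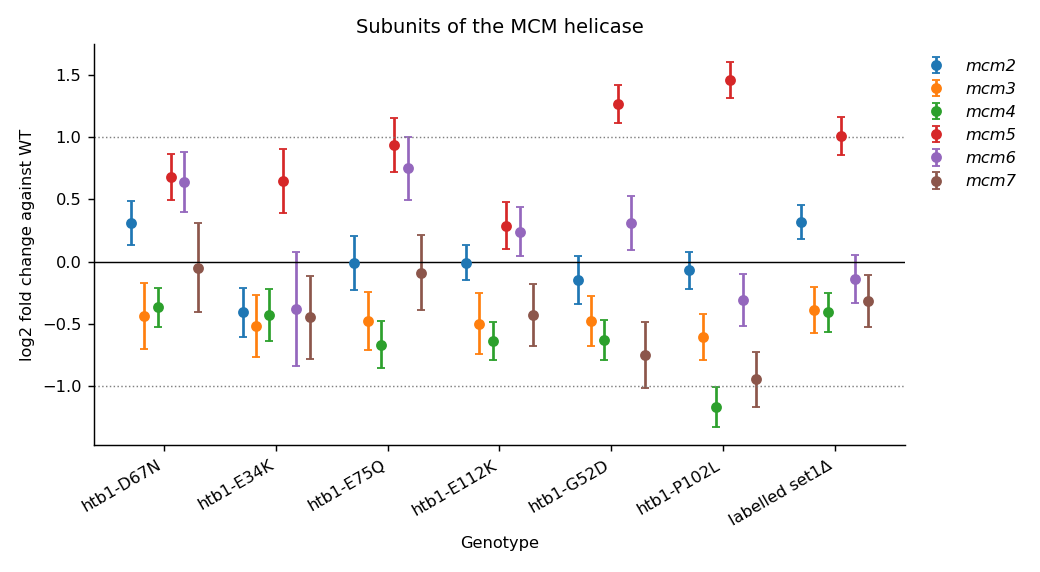
Log2 fold change against WT (y axis; TMM scaling, points with SE from the edgeR fit, n = 3 against 3) of the 6 MCM subunits in each genotype (x axis). *mcm5* lies above 0 in every genotype, at 1.46 in *htb1-P102L*, where *mcm4* lies at -1.17; with the gene-length correction *mcm5* in *htb1-E112K* is at -0.07, and under total-count scaling *mcm4* in *htb1-P102L* is at -0.83.

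Among the clamp and its loader, *rfc4* (SPAC1687.03c) and *rfc2* (SPAC23D3.02), which encode small subunits of the loader, were called lower and no gene was called higher. *rfc4* held 47.9, 37.7 and 37.5 CPM in WT. It fell to 20.5, 18.3 and 15.5 CPM in *htb1-E75Q* (log2 fold change -1.19 ± 0.194 (SE), adjusted p = 0.000539). *htb1-G52D* libraries held 21.1, 18.5 and 16.1 CPM (log2 fold change -1.14 ± 0.161 (SE), adjusted p = 0.000593). In both mutants all libraries lay below all WT libraries.

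*rfc4* was also below WT, short of 2-fold, in *htb1-D67N* at 19.5, 20.1 and 20.3 CPM (-0.97, adjusted p = 0.000719), in *htb1-P102L* at 23.4, 19.7 and 18.8 CPM (-0.97, adjusted p = 0.00047) and in *htb1-E112K* at 27.5, 19.9 and 20.6 CPM (-0.82, adjusted p = 0.00537). The *htb1-E34K* libraries gave 25.5, 22.5 and 26.4 CPM and those labelled *set1*Δ 31.9, 28.4 and 30.3 CPM. It was the only gene of the 35 that lay below WT in all 6 H2B mutants under every scaling tried, though total-count scaling reduced its log2 fold change to -0.51 in *htb1-E75Q* and -0.45 in *htb1-G52D* and ended both calls. The gene *rce1* overlaps 96.4% of *rfc4* on the opposite strand; it had fewer counts than *rfc4* in WT, where *rfc4* had a mean of 715, and its log2 fold change was 0.03 in *htb1-E75Q* and -0.76 in *htb1-G52D*.

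*rfc2* held 6.83, 6.61 and 8.78 CPM in WT and 3.58, 3.86 and 3.45 CPM in *htb1-G52D*, where it fell without overlap (log2 fold change -1.03 ± 0.204 (SE), adjusted p = 0.00341), and this call too was lost under total-count scaling (-0.39), without WT replicate 3 (-0.89), without *htb1-G52D* replicate 3 (-0.99) and without the 3 libraries with *ura4* counts (-0.88). *pcn1* was called in no comparison. Its WT libraries held 95.5, 94.1 and 94.4 CPM, with 69.4, 75.7 and 64.1 CPM in *htb1-D67N* (-0.37, adjusted p = 0.0447), 73.4, 73.7 and 73.8 CPM in *htb1-E112K*, 66.8, 69.1 and 80.3 CPM in *htb1-E75Q* and 71.3, 88 and 103 CPM in *htb1-E34K*. *htb1-G52D* gave 71.2, 74.3 and 81.3 CPM of *pcn1*, *htb1-P102L* 74.3, 77 and 77.5 CPM and the libraries labelled *set1*Δ 84.7, 76.4 and 81 CPM. Its 6 log2 fold changes in the H2B mutants lay between -0.40 and -0.08, and between 0.01 and 0.33 under total-count scaling, so its direction depended on the scaling. *rfc5* lay below WT in *htb1-E112K* (-0.79, adjusted p = 0.00395) and *htb1-D67N* (-0.54, adjusted p = 0.016), *rfc3* in *htb1-P102L* (-0.68, adjusted p = 0.0209), and *rfc1*, the large subunit, ranged from -0.25 to 0.36.

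Okazaki fragment processing held the gene with the largest fold change of the 35, *dna2* (SPBC16D10.04c), called higher in *htb1-D67N*, *htb1-G52D*, *htb1-E112K* and *htb1-E75Q*. It was also the scarcest, with 7, 4 and 10 counts in the WT libraries, or 0.416, 0.249 and 0.511 CPM. *htb1-D67N* held 2.04, 2.42 and 3.12 CPM from 38, 48 and 82 counts (log2 fold change 2.73 ± 0.378 (SE), adjusted p = 0.000365). *htb1-G52D* held 2.24, 1.58 and 1.72 CPM (log2 fold change 2.21 ± 0.407 (SE), adjusted p = 0.00228) and *htb1-E112K* 1.35, 2.11 and 1.41 CPM (log2 fold change 2.03 ± 0.38 (SE), adjusted p = 0.00388). In these mutants all 3 libraries lay above all 3 WT libraries. The WT libraries held too few *dna2* counts to pass the filter on low counts, so *dna2* was tested because of its counts in the mutants. The calls in these 3 mutants held without that filter.

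The library with the most *dna2* counts held 80.3% of those of its genotype in *htb1-E34K* and 75.4% in *htb1-E75Q*, against 50.7% in *htb1-G52D*, 48.8% in *htb1-D67N* and 36% in *htb1-E112K*. In *htb1-E75Q* the counts were 16, 86 and 12 and the values 0.717, 2.96 and 0.594 CPM (log2 fold change 1.83 ± 0.679 (SE), adjusted p = 0.0499); without replicate 2 the log2 fold change was 0.74 and the call was lost, as it was without any 1 of the WT libraries (1.59–2.06). In *htb1-E34K* the counts were 98, 15 and 9 and the values 3.78, 0.545 and 0.523 CPM (2.07 ± 0.825, adjusted p = 0.235), which gave no call. The highest *dna2* counts of *htb1-E34K*, *htb1-E75Q*, *htb1-D67N*, *htb1-G52D* and WT were each in the library with the highest TMM factor of its genotype. In *htb1-E112K* the highest count, 45, was in replicate 2, which had the lowest TMM factor of that genotype (0.819). In *htb1-P102L* and in the libraries labelled *set1*Δ the highest counts, 18 and 21, were also not in the library with the highest factor. *dna2* stood at 0.956, 0.694 and 0.611 CPM in *htb1-P102L* (0.90, adjusted p = 0.126) and 0.635, 0.844 and 0.546 CPM in the libraries labelled *set1*Δ (0.82, adjusted p = 0.179). Its sign was above WT in all 6 H2B mutants under TMM, total-count, DESeq2 and gene-length settings alike, and the gene-length correction ended the call in *htb1-E75Q* (1.18).

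SPAC12B10.15c, the gene of the Rnh203 subunit of RNase H2 (RefSeq symbol *rnh203*), was called higher in *htb1-E75Q*, *htb1-P102L* and *htb1-G52D*. WT libraries held 7.54, 8.67 and 4.75 CPM. *htb1-E75Q* held 19, 20.9 and 22.5 CPM (log2 fold change 1.57 ± 0.23 (SE), adjusted p = 0.000251), *htb1-P102L* 19.5, 18.4 and 18.2 CPM (log2 fold change 1.45 ± 0.198 (SE), adjusted p = 0.000219) and *htb1-G52D* 12, 17.4 and 17.3 CPM (log2 fold change 1.16 ± 0.246 (SE), adjusted p = 0.00486). All libraries of the 3 mutants lay above WT, and without WT replicate 3 the value in *htb1-G52D* was 0.93, short of the fold limit. In *htb1-D67N* it stood at 4.77, 5.39 and 2.55 CPM (-0.66, adjusted p = 0.12) and in *htb1-E112K* at 3.86, 5.34 and 4.71 CPM (-0.56, adjusted p = 0.115), both overlapping the WT libraries. *htb1-E34K* gave 12.2, 9.56 and 8.07 CPM and the libraries labelled *set1*Δ 8.36, 8.32 and 8.99 CPM. The other RNase H2 subunits were not called: *rnh201*, the catalytic subunit, ranged from -0.68 to 0.18, and SPBC1347.08c, the Rnh202 subunit, from -0.52 in *htb1-P102L* (adjusted p = 0.0492) to 0.29 in *htb1-E112K*.

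**Figure D4:**
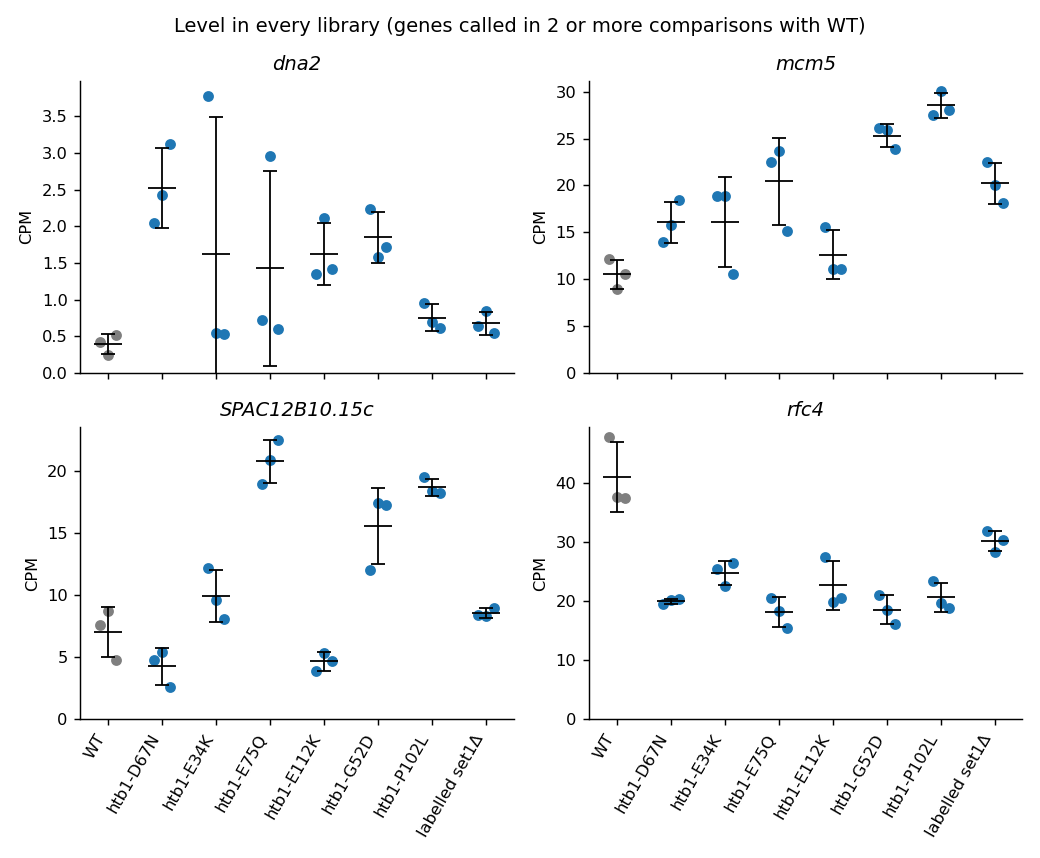
CPM after TMM scaling (y axes) in every library of the 8 genotypes (x axis) for *dna2*, *mcm5*, SPAC12B10.15c and *rfc4*; points are libraries, bars the mean with SD of 3, the error bars of *dna2* being cut at 0. *dna2* shows single high libraries in *htb1-E34K* and *htb1-E75Q*, where the means rest on 1 of 3 points, and *rfc4* shows WT libraries above those of *htb1-E75Q* and *htb1-G52D*.

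The remaining genes of Okazaki fragment processing were not called. *rad2*, the flap endonuclease FEN1, lay between -0.39 and 0.18 of WT on the log2 scale. *cdc17*, DNA ligase I, held 4.51, 2.99 and 3.78 CPM in WT and 8.12, 7.56 and 6.14 CPM in *htb1-G52D* (0.95, adjusted p = 0.0079), just short of 2-fold. *rnh1*, RNase H1, lay below WT in *htb1-E75Q* (-0.72, adjusted p = 0.0218) and *htb1-G52D* (-0.50, adjusted p = 0.0436), and at -0.03 in *htb1-P102L*. The ligase gene *adl1* ranged from -0.42 to 1.18 with no call, at 0.475, 1.81 and 1.48 CPM in WT.

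The catalytic subunits of the 3 replicative polymerases were each called higher in 1 H2B mutant. The polymerase alpha gene *pol1* (SPAC3H5.06c) held 1.43, 2.37 and 2.76 CPM in WT and 4.39, 4.33 and 5.71 CPM in *htb1-D67N* (log2 fold change 1.21 ± 0.281 (SE), adjusted p = 0.00737). The polymerase delta gene *cdc6* (SPBC336.04) held 0.891, 1.43 and 2.6 CPM in WT and 2.6, 7.46 and 3.51 CPM in *htb1-E75Q* (log2 fold change 1.43 ± 0.459 (SE), adjusted p = 0.027), where 1 library overlapped the WT range. The gene *hen1* overlaps 58.9% of *cdc6* on the opposite strand, with a mean of 19.3 counts in WT against 29.7 for *cdc6* and a log2 fold change of -0.08 in *htb1-E75Q*. The polymerase epsilon gene *cdc20* (SPBC25H2.13c) held 1.13, 0.873 and 1.74 CPM in WT and 3.52, 2.28 and 4.05 CPM in *htb1-G52D* (log2 fold change 1.39 ± 0.359 (SE), adjusted p = 0.0117). With the gene-length correction these log2 fold changes were 0.72 for *pol1*, 0.81 for *cdc6* and 0.69 for *cdc20*, and all 3 calls were lost. The call of *pol1* was also lost without WT replicate 1 (0.95), that of *cdc6* without WT replicate 1 (1.14), WT replicate 2 (1.33) or *htb1-E75Q* replicate 2 (0.89), and that of *cdc20* without WT replicate 2 (1.20) or *htb1-G52D* replicate 3 (1.22). In the direct comparison of *htb1-G52D* with *htb1-P102L*, the log2 difference was 0.30 for *pol1* (adjusted p = 0.436), 0.79 for *cdc6* (adjusted p = 0.28) and 0.39 for *cdc20* (adjusted p = 0.344). Short of 2-fold, *cdc20* also lay above all WT libraries in *htb1-P102L*, at 2.42, 2.74 and 2.27 CPM (log2 fold change 0.99 against WT). The same held for the libraries labelled *set1*Δ, at 1.96, 2.65 and 2.1 CPM (0.89).

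Of the accessory subunits of polymerase delta, *cdc1* was called higher in *htb1-P102L* and *cdm1* in *htb1-D67N*. *cdc1* (SPAC27E2.05) held 53.9, 51.5 and 48.1 CPM in WT and 175, 108 and 113 CPM in *htb1-P102L*, where it rose (log2 fold change 1.39 ± 0.187 (SE), adjusted p = 0.0002), and 98.4, 111 and 95.7 CPM in *htb1-G52D* (0.99, adjusted p = 0.000476), just short of 2-fold. *htb1-E112K* stood on the other side of WT at 32.5, 30.8 and 31.8 CPM (-0.66, adjusted p = 0.00325), and the libraries labelled *set1*Δ held 75.3, 67.4 and 66.3 CPM (0.51, adjusted p = 0.00657). *cdm1*, the smallest subunit, held 0.831, 0.187 and 1.07 CPM in WT and 1.39, 2.32 and 2.86 CPM in *htb1-D67N* (log2 fold change 1.70 ± 0.493 (SE), adjusted p = 0.021). Its counts were 14, 3 and 21 in WT and 26, 46 and 75 in *htb1-D67N*. With 3 counts in replicate 2, WT alone would not pass the filter on low counts. As with *dna2*, *cdm1* was therefore tested because of its counts in the mutant. All of *cdm1* lies within the overlapping gene *sad1* on the opposite strand, which had a mean of 169 counts in WT against 12.7 for *cdm1* and its own log2 fold change of 1.08 in *htb1-D67N*, and the call of *cdm1* was lost without any 1 of 4 libraries (WT replicate 1 or 2, *htb1-D67N* replicate 2 or 3; 1.24–1.80). In *htb1-G52D* *cdm1* stood at 0.145, 0 and 0.45 CPM (-1.72, adjusted p = 0.128), and *cdc27* was called in no comparison, with log2 fold changes from -0.33 to 1.26.

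The other subunits of polymerase alpha-primase and of polymerase epsilon were not called. *spb70*, the B subunit of polymerase alpha, held 11, 9.79 and 9.44 CPM in WT and lay below it in *htb1-P102L* (-0.90, adjusted p = 0.000849), *htb1-E112K* (-0.79, adjusted p = 0.0123), *htb1-G52D* (-0.66, adjusted p = 0.0159) and *htb1-E75Q* (-0.61, adjusted p = 0.0392). The primase genes gave -0.60 for *spp2* in *htb1-P102L* (adjusted p = 0.0247) and values from -0.25 to 0.16 for *spp1*. *dpb2* ranged from -0.19 to 0.63, *dpb4* from 0.00 to 1.08 and SPCC16C4.22 (RefSeq symbol *dpb3*) from -0.65 to 0.29.

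The RPA genes *ssb1*, *ssb2* and *ssb3* were called in no comparison. They are set beside the MluI cell cycle box because 2 of them were the only promoters among the 35 that held its letters, ACGCGT, in the window from 250 bases before to 50 after the RefSeq mRNA start (assembly ASM294v3, matched by locus tag for all 35 genes). Over all 5123 protein-coding genes, 166 windows (3.24%) held at least 1 such hexamer, which reads the same on both strands, against 2 of 35 (5.71%) here. The windows of *mcm5*, *mcm4*, *dna2*, *rfc4* and *pcn1* held 0. The *ssb1* window had 3 copies, whereas 17 of the 5123 (0.332%) held 2 or more copies. Both stretches are printed 5′ to 3′ on the gene's strand with the hexamers in capitals.
ssb1: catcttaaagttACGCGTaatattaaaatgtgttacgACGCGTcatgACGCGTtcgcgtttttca
ssb3: actttataaacaACGCGTataaaataatat
The *ssb1* stretch (chromosome II) is 65 bases long and ends 38 bases before the start and the *ssb3* stretch (chromosome III) lies from 9 to 38 bases after it. A match of letters is a description of these windows and not a bound site.

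*ssb1* (SPBC660.13c), the large RPA subunit, held 15.4, 12.2 and 18.2 CPM in WT and 22.2, 25.4 and 36.3 CPM in *htb1-D67N* (0.95, adjusted p = 0.00682) and 27.3, 18 and 22.3 CPM in *htb1-G52D* (0.57, adjusted p = 0.0419), both short of 2-fold. The remaining genotypes gave 21.7, 17 and 16.7 CPM of *ssb1* in *htb1-E112K*, 16.1, 13.1 and 13.3 CPM in *htb1-P102L*, 31.6, 12.6 and 11.8 CPM for *htb1-E34K*, 16.8, 26.7 and 16 CPM for *htb1-E75Q* and 16.6, 15.8 and 14.2 CPM in the libraries labelled *set1*Δ. *ssb2* (SPCC1753.01c), the middle subunit, held 25.7, 25.8 and 28 CPM in WT with log2 fold changes from -0.31 to 0.12, and the gene *sec1* overlaps 97.1% of it on the opposite strand. Its libraries held 18.4, 22.6 and 25.4 CPM in *htb1-D67N*, 30.7, 19.8 and 24.5 CPM in *htb1-G52D*, 22.9, 22.2 and 22.7 CPM in *htb1-E112K*, 24.5, 20.3 and 22.3 CPM in *htb1-P102L*, 33.2, 27.6 and 23.2 CPM for *htb1-E34K*, 24.7, 30.6 and 18.1 CPM for *htb1-E75Q* and 21.6, 20 and 19.7 CPM for those labelled *set1*Δ. *ssb3* (SPCC23B6.05c), the small subunit, held 1.07, 0.748 and 0.562 CPM in WT and ranged from -0.47 to 0.55 with adjusted p above 0.05 throughout. It stood at 1.45, 0.654 and 1.22 CPM in *htb1-D67N*, 1.16, 0.761 and 0.637 CPM in *htb1-G52D*, 1.03, 0.656 and 0.631 CPM in *htb1-E112K*, 0.637, 0.887 and 0.18 CPM in *htb1-P102L*, 1.23, 0.436 and 0.407 CPM for *htb1-E34K*, 0.941, 0.688 and 0.445 CPM for *htb1-E75Q* and 0.741, 0.803 and 0.336 CPM for the libraries labelled *set1*Δ. Of the 3 subunits, *ssb1* alone had an adjusted p below 0.05 in a comparison with WT; the differences between subunits were not tested.

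Tested over all 8 genotypes at once with edgeR, 18 of the 35 genes (51.4%) differed somewhere, against 68.8% of all genes tested. Under total-count scaling 6 (17.1%) differed, against 47.7% of all genes. DESeq2 gave 26 (74.3%) against 73.4%, and without the 4 libraries with the largest TMM factors, an alternative chosen after seeing the data, the count was also 26 (74.3%), against 76.4%. The smallest adjusted p values were those of SPAC12B10.15c (4.48e-08), *cdc1* (1.77e-06), *rfc4* (3.07e-06), *mcm5* (3.15e-05), *rfc5* (0.000155) and *mcm4* (0.000329). *dna2*, with the largest fold changes, had an adjusted p of 0.0168 here, at between 4 and 98 counts a library. Genes such as *spp1* (0.909), *ssb3* (0.728) and *dpb4* (0.53) showed no detectable difference among genotypes at this depth.

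Across the 6 H2B mutants, which share the WT libraries, 10 genes lay below WT in all 6 (*mcm3*, *mcm4*, *mcm7*, *pcn1*, *rfc2*, *rfc3*, *rfc4*, *rnh1*, *spb70* and *spp1*), but only *rfc4* did so under total-count scaling. On the other side, 6 genes lay above WT in all 6 mutants (*cdc20*, *cdc6*, *dna2*, *mcm5*, *pol1* and *rfc1*), a number that became 16 under total-count scaling and 2 (*dna2* and *dpb4*) with the gene-length correction. The share of all genes with the same sign in all 6 mutants was not taken. These counts are therefore not read as a trait of the 35 genes. Total-count scaling moved the median log2 fold change of all genes up to between 0.21 in the libraries labelled *set1*Δ and 0.77 in *htb1-G52D*. Under it 9 of the 35 genes were called higher in *htb1-G52D* (25.7%; all genes 33.9%), 5 in *htb1-D67N* (14.3%; all genes 18.1%), 7 in *htb1-E75Q* (20%; all genes 28.5%), 2 in *htb1-E112K* (5.71%; all genes 15.2%), 4 in *htb1-P102L* (11.4%; all genes 17.8%), 2 in the libraries labelled *set1*Δ (5.71%; all genes 7.86%) and 0 in *htb1-E34K* (all genes 2.34%). It gave 0 lower calls among the 35 genes in any of them, against 0.0823–1.48% of all genes. Over all genes it called 1660 up and 55 down for *htb1-G52D*, where TMM called 658 and 395, and 1387 up and 69 down for *htb1-E75Q*, where TMM called 633 and 413.

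The 6 genes with a mean below 1 FPKM over all 24 libraries, *cdc20*, *dna2*, *adl1*, *cdc27*, *pol1* and *cdc6*, are the scarcest of the 35 by that mean. Their median log2 fold change was 1.17 in *htb1-E34K*, 0.94 in *htb1-E75Q*, 0.86 in *htb1-G52D*, 0.73 in *htb1-E112K* and 0.57 in *htb1-D67N*, against 0.06 in *htb1-P102L* and 0.10 in the libraries labelled *set1*Δ. All genes at that level had medians of 0.65, 0.67, 0.66, 0.54, 0.40, 0.33 and 0.20 in the same order, and 21.9% of them were called higher in *htb1-E75Q* and 23.9% in *htb1-G52D*. Summed over the 6 genes, WT libraries held 4.81, 7.55 and 9.6 CPM. *htb1-E34K* replicate 1 held 29.9 CPM against 7.38 and 7.49 CPM in its other libraries, and *htb1-E75Q* replicate 2 held 23.1 CPM against 11 and 9.89 CPM. In *htb1-D67N* the highest sum, 17.7 CPM, was that of replicate 3, the library with its highest TMM factor. In *htb1-P102L*, replicate 3 had the highest TMM factor (1.16) and the lowest sum, 7.52 CPM. Among the libraries labelled *set1*Δ, replicate 3 had the lowest factor (0.845) and the highest sum, 8.7 CPM. The part of such library differences in the calls of scarce genes was not tested beyond leaving out each library.

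**Figure D5:**
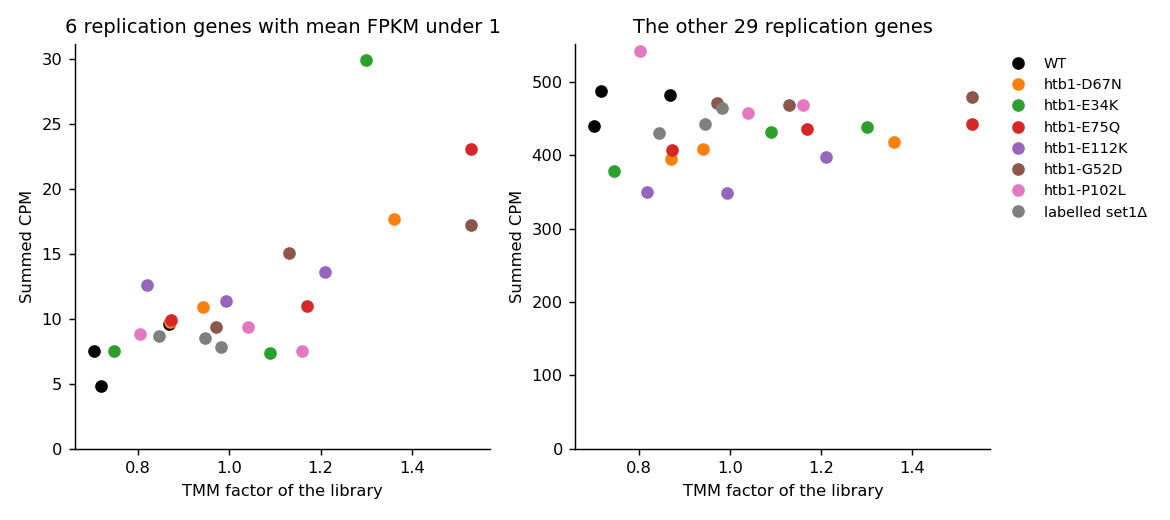
Summed CPM of the 6 replication genes with a mean below 1 FPKM and of the other 29 (y axes) against the TMM factor (x axis) of each of the 24 libraries, coloured by genotype. The highest sums of the 6 scarce genes, 29.9 CPM in *htb1-E34K* replicate 1 and 23.1 CPM in *htb1-E75Q* replicate 2, are in libraries with TMM factors of 1.3 and 1.53. In *htb1-P102L* the library with the highest factor, 1.16, has the lowest sum, 7.52 CPM.

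The mutants *htb1-G52D* and *htb1-P102L*, both without kanMX6 and h- by genotype, were also compared with each other. In all, 1 of the 35 genes was higher in *htb1-G52D* (2.86%; all genes 3.37%) and 0 were lower (all genes 3.39%), while 5 (14.3%) had an adjusted p below 0.05 against 19% of all genes. The called gene was *dna2*, at 2.24, 1.58 and 1.72 CPM in *htb1-G52D* and 0.956, 0.694 and 0.611 CPM in *htb1-P102L* (log2 fold change 1.30 ± 0.359 (SE), adjusted p = 0.0308), and total-count scaling gave 1.65 with an adjusted p of 0.0737. With all 24 libraries in 1 fit the adjusted p was 0.156, and with the replicate block it was 0.0572. This call was lost without *htb1-G52D* replicate 1 (1.13) or 3 (1.37) and without *htb1-P102L* replicate 2 (1.22) or 3 (1.17). The other 4 were SPBC1347.08c (0.77, adjusted p = 0.0354), *ssb1* (0.66, adjusted p = 0.0245) and *mcm4* (0.54, adjusted p = 0.0382), higher in *htb1-G52D*, and *rnh1* (-0.48, adjusted p = 0.0426), higher in *htb1-P102L*. *mcm5*, SPAC12B10.15c and *cdc1*, called above WT in at least 1 of them, differed between them by -0.20 (adjusted p = 0.266), -0.29 (adjusted p = 0.219) and -0.40 (adjusted p = 0.176). By an unadjusted p below 0.05, *htb1-G52D* had 7 of the genes above *htb1-P102L* and 3 below it, beside 1662 of all 4928 genes in either direction. DESeq2 called 2 higher and 0 lower, against 3.37% and 3.62% of all genes. The median log2 difference was 0.24 over the 35 genes and 0.05 over all genes. The gene *rex2* overlaps 85.9% of SPBC1347.08c on the opposite strand, with a mean of 84.7 counts in WT against 82.7 for SPBC1347.08c. In this comparison *rex2* had an edgeR log2 difference of -0.60 (adjusted p = 0.143).

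Genes that act just upstream of the machinery were read from lists of 19 origin licensing and firing genes, 9 fork protection genes, 12 MBF and G1/S genes and 8 genes of the histones H2A, H3 and H4. Of the 19 origin genes, 3 were called higher in *htb1-D67N* (*orc1* 1.46, *cdt1* 2.31 and *mcm10* 1.03) and 1 lower (*psf3* of the GINS complex, -1.28), while 3 were higher in *htb1-E75Q* (*cdt1*, *drc1* and *hsk1*), 3 in *htb1-E112K* (*orc4*, *cdt1* and *mcm10*), 2 in *htb1-G52D* (*orc3* and *drc1*) and 2 in the libraries labelled *set1*Δ (*cdt1* and *rad4*). By edgeR 0 were called in *htb1-E34K* or *htb1-P102L*. Of all genes, 10.8% were higher in *htb1-D67N*, 13% in *htb1-E75Q*, 7.96% in *htb1-E112K* and 13.4% in *htb1-G52D*. The share was 9.93% in *htb1-P102L*, 0.103% in *htb1-E34K* and 5.16% in the libraries labelled *set1*Δ. Lower were 4.48% in *htb1-D67N* and 3.48% in *htb1-P102L*. The licensing factor gene *cdt1* held means of 4.6 CPM in *htb1-D67N* and 0.972 CPM in WT. Of the fork protection genes, *swi1* was lower in *htb1-D67N* (-1.76) and *htb1-P102L* (-1.68), *rad17* was higher in *htb1-E112K* (1.64) and the libraries labelled *set1*Δ (1.87), and *mrc1* was higher in *htb1-G52D* (means of 5.95 and 2.98 CPM).

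Of the MBF and G1/S genes, *res2*, which encodes an MBF subunit, was higher and *cdc22*, which encodes the large subunit of ribonucleotide reductase, was lower in the same 3 mutants, *htb1-E75Q* (1.74 and -2.54), *htb1-G52D* (1.57 and -1.15) and *htb1-P102L* (1.31 and -2.44), which are also the 3 in which SPAC12B10.15c was higher. *yox1* (1.27) and the cyclin gene *cig2* (1.04) were higher in *htb1-D67N*, and the reductase inhibitor gene *spd1* (1.03) was higher in *htb1-G52D*. Beside these calls, 13%, 13.4%, 9.93% and 10.8% of all genes were higher in *htb1-E75Q*, *htb1-G52D*, *htb1-P102L* and *htb1-D67N*. Lower were 8.48%, 8.07% and 3.48% of all genes in *htb1-E75Q*, *htb1-G52D* and *htb1-P102L*. The 8 genes of histones H2A, H3 and H4 gave 0 calls by edgeR in any comparison, with log2 fold changes from -0.96 to 0.57. The list leaves out *htb1*, the mutated H2B gene, which was called higher in *htb1-D67N* (3.48 ± 0.264, adjusted p = 5.69e-06), *htb1-E75Q* (2.70 ± 0.354, adjusted p = 0.000105) and *htb1-E112K* (2.47 ± 0.221, adjusted p = 5.48e-05). It was at 0.02 in *htb1-E34K*, 0.07 in *htb1-G52D*, 0.65 (adjusted p = 0.00948) in *htb1-P102L* and -0.26 in the libraries labelled *set1*Δ. A change in the share of cells in S phase and a change in RNA per cell cannot be told apart in these bulk libraries. Calls were also frequent in a list of 10 stress response genes, of which 7 were called higher in *htb1-D67N*, 10 in *htb1-E75Q*, 10 in *htb1-P102L*, 10 in *htb1-G52D*, 6 in *htb1-E112K* and 0 in *htb1-E34K*, while 3 were lower in the libraries labelled *set1*Δ. Of all genes, 0.103–13.4% were called higher in these mutants, and 1.3% lower in the libraries labelled *set1*Δ.

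The summed level of the 10 stress genes was 3157.5–3897.8 CPM in WT, 5190.6–7969.7 CPM in *htb1-D67N*, 1816.7–4430.2 CPM in *htb1-E34K*, 9208.5–15922.9 CPM in *htb1-E75Q*, 5601.1–8738.8 CPM in *htb1-E112K*, 9235.8–13010.3 CPM in *htb1-G52D*, 9410.2–11143.9 CPM in *htb1-P102L* and 1416–1479.7 CPM in the libraries labelled *set1*Δ, and no gene of the list was at 0 in every library of a genotype. The 3 mutants with the highest sums were those in which SPAC12B10.15c was called higher, and the part of the stress genes in the values of the replication genes was not tested. Of 6 meiosis and mating genes, not all passed the filter on low counts in a comparison with WT. Called higher were 3 of 3 tested in the libraries labelled *set1*Δ, 3 of 5 in *htb1-E112K* and 2 of 5 in *htb1-G52D*. The count was 2 of 4 in *htb1-D67N* and in *htb1-P102L*, 1 of 4 in *htb1-E75Q* and 0 of 3 in *htb1-E34K*. Of all genes, 0.103–13.4% were called higher in these comparisons. The summed level of the 6 genes was 21.5–33 CPM in WT. It was highest in *htb1-E112K*, at 60.8–80.9 CPM, where *dna2* was the single replication gene called.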

How the data were processed

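Polyadenylated RNA of the 24 libraries (3 biological repeats of 8 genotypes) was sequenced by the authors on an Illumina HiSeq. Reads were filtered with fastp, rRNA reads were removed with Bowtie2, the rest was aligned with HISAT2, and FPKM values were computed with StringTie; the submitters' processing notes also name RSEM and DESeq2. The deposited tables hold whole-number counts per gene and FPKM per library, and the WT columns were identical in all 7 tables. The authors' fold changes and p-values in the same tables were not used. Whether counting used strand is not given in the sources used here.

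Counts were tested with edgeR 4.0.16 in R 4.3.3 (filterByExpr, TMM, quasi-likelihood test, 3 against 3) on the whole table, with Benjamini-Hochberg adjustment over all genes tested; a call needs an adjusted p below 0.05 and at least a 2-fold change. FPKM served only to compare levels between genes. Each pairwise test was checked on simulated data, in which 200 genes changed by a log2 fold of 2 were recovered at 90.5% in *htb1-E75Q* and 98% in the libraries labelled *set1*Δ, the lowest and the highest of the comparisons. Between 1 and 10 unchanged genes were called per comparison. The counts were drawn from the fitted edgeR model, with a change larger than that of most calls here. Recovery at the 2-fold limit was not tested. Alternatives were DESeq2 1.42.0, total-count scaling, no filter, a replicate block, 1 fit of all libraries, a loess correction for gene length, and leaving out libraries. The test over all genotypes without the 4 libraries with the largest TMM factors was added after seeing the data. By rule, values in every library are given for genes called in at least 2 comparisons with WT, the MCM and RPA genes and *pcn1*, and every called gene is named. The replication genes, the gene lists and the rule were chosen with earlier results of these data known. Each p-value sets a difference between genotypes against the spread between these libraries. With 1 strain per genotype it does not cover variation between independent strains.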

Additional observations from a re-analysis of the deposited data

Results flagged for a closer look

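In 5 of the 35 genes *htb1-G52D* and *htb1-P102L* differed at an adjusted p below 0.05 (edgeR, 3 against 3, adjusted over all genes). The libraries of these mutants were tested directly against each other, without the WT libraries. The log2 difference, *htb1-G52D* minus *htb1-P102L*, was 1.30 for *dna2*, 0.77 for SPBC1347.08c, 0.66 for *ssb1*, 0.54 for *mcm4* and -0.48 for *rnh1*. These 5 are 14.3% of the 35, against 19% of all genes. For *dna2* the call was lost under total-count scaling (adjusted p = 0.0737), with all 24 libraries in 1 fit (0.156), with the replicate block (0.0572) and without any 1 of 4 libraries (*htb1-G52D* replicate 1 or 3, *htb1-P102L* replicate 2 or 3).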

How the results depend on the processing

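Of 251 alternative values for 20 gene results, 209 kept the call, 42 lost it and 0 changed sign, and 7 of the 20 were called under every alternative. Counts of calls among the 35 genes moved as follows. With DESeq2 they were 2 higher in *htb1-G52D* against *htb1-P102L* (all genes 3.37%) and 0 higher in the libraries labelled *set1*Δ (all genes 4.37%). DESeq2 also gave 1 lower in *htb1-D67N* (all genes 5.49%) and 2 lower in *htb1-P102L* (all genes 3.84%). With all 24 libraries in 1 fit they were 0 higher in *htb1-G52D* against *htb1-P102L* (all genes 3.22%), 0 higher in the libraries labelled *set1*Δ (all genes 3.78%) and 1 lower in *htb1-D67N* (all genes 5.65%). With the gene-length correction they were 2 higher in *htb1-G52D* (all genes 12%), 0 higher in the libraries labelled *set1*Δ (all genes 4.83%) and 2 lower in *htb1-P102L* (all genes 4.05%). Total-count scaling gave 5 higher in *htb1-D67N*, 7 in *htb1-E75Q*, 2 in *htb1-E112K*, 9 in *htb1-G52D* and 2 in the libraries labelled *set1*Δ, 0 lower in *htb1-E75Q*, *htb1-G52D* and *htb1-P102L*, and 6 genes (17.1%; all genes 47.7%) that differed over the 8 genotypes. Without the 3 libraries with *ura4* counts there was 1 lower in *htb1-G52D* (all genes 8.11%), 2 lower in *htb1-P102L* (all genes 4.3%) and 1 lower in *htb1-G52D* against *htb1-P102L* (all genes 5.05%). The cause of these shifts was not tested. Without the 4 libraries with the largest TMM factors, an alternative chosen after seeing the data, 26 genes (74.3%; all genes 76.4%) differed over the 8 genotypes.

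Leaving out each library in turn gave 1–4 higher and 0–1 lower in *htb1-D67N* (all genes 9.29–10.4% and 4.56–5.84%). It gave 0–0 and 0–0 in *htb1-E34K* (all genes 0–1.19% and 0–0.549%) and 1–4 and 1–2 in *htb1-E75Q* (10.2–14.8% and 6.72–9.98%). The counts were 1–2 and 0–0 in *htb1-E112K* (6.56–8.22% and 1.91–2.87%) and 3–4 and 1–3 in *htb1-P102L* (9.06–10% and 3.53–4.18%). They were 3–6 and 1–2 in *htb1-G52D* (11.6–14.6% and 6.83–9.46%) and 0–1 and 0–0 in the libraries labelled *set1*Δ (4.12–5.5% and 1.21–1.78%). In *htb1-G52D* against *htb1-P102L* they were 0–3 and 0–0 (2.12–4.29% and 2.55–4.52%). Over the 8 genotypes 15–23 genes differed (all genes 62.9–74.5%). The lower count reached 3 in *htb1-P102L* without WT replicate 2 or *htb1-P102L* replicate 1. Same-numbered libraries had correlations of their deviations from -0.197 to 0.241, and in no comparison were all 3 pairs over 0.1, although all 3 were positive in *htb1-D67N* (0.108, 0.0796 and 0.241) and 2 of 3 were over 0.1 in *htb1-G52D* against *htb1-P102L* (0.127 and 0.13). The replicates were therefore treated as sharing only a number. With the replicate block the count in *htb1-G52D* against *htb1-P102L* was 0 higher (all genes 2.92%), and no other count of calls moved by over 1.5 times. Scarce genes set the limit of depth: *dna2* had 4–10 counts in the WT libraries.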
